A study of Mus musculus with 48 samples.

Results

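The genes that a cell transcribes while it copies its DNA and divides were followed in mice that lack TIA-1 and in wild-type mice, in spinal cord, cerebellum, midbrain and liver. The list held 38 genes of S phase and of G2 and mitosis, and 37 of them were measured, with 1 probe set each: the set that carried the gene's symbol and had the highest mean over all 48 arrays. Ccnb1 had no probe set under its symbol in the annotation used here. The 37 were taken out of 45037 probe sets and 17097 gene symbols on the array, and they split into 15 genes of DNA replication and 22 genes of mitosis. The 6 KO groups of nervous tissue and the 2 KO groups of liver, at 6 and at 3 months of age, each had 3 mice, and each was set against 3 WT mice of the same tissue and age. KO mice carried a Tia1 gene disrupted at exon 4 by homologous recombination, which leaves a shortened mRNA and no TIA-1 protein, and their line had been crossed to C57BL6/J over many generations and was kept by homozygous matings. The WT mice were C57BL6/J animals, bought from a vendor by the study's methods and littermates by its design text, so genotype and colony of origin cannot be told apart. Each mouse gave all 4 tissues. The same mouse numbers stood in the labels at both ages although tissue can be taken only at death, so the ages were taken as different mice, and age and cohort cannot be told apart. Levels are log2 array signals as normalized by the study, so that a difference of 1 is a 2-fold change, and the level of a gene cannot be set against that of another.

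Dividing cells switch these genes on in a fixed order. E2F factors start the replication genes as a cell leaves G1: licensing factors (Cdc6, Cdt1) load the MCM helicase (Mcm2 to Mcm7) at origins, and Pcna, Rrm1, Rrm2, Tk1 and Tyms supply the replication clamp and the nucleotides. The mitotic genes follow under a complex of B-Myb, FoxM1 and MuvB proteins together with NF-Y: cyclins and kinases (Ccna2, Ccnb2, Cdk1, Aurka, Plk1), the anaphase activator Cdc20, and the proteins of chromosomes and spindle (Top2a, Mki67, Cenpf, Nusap1, Prc1). Most neurons and hepatocytes of adult mice do not divide. Which cells of a whole tissue held these mRNAs was not measured. Fewer cells with such an mRNA cannot be told apart from less RNA in each of them. TIA-1 binds AU-rich mRNAs, holds back their translation and gathers them in stress granules.

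Promoters of many members carry the short elements of this programme. The 6 shown belong to genes of the liver and spinal cord results that follow. Sequences and coordinates are those of RefSeq on GRCm38.p6, from 250 bases before to 50 bases after the annotated start, 5′ to 3′ on the strand of the gene. Capitals mark 3 elements, searched on both strands. CCAAT is the box that NF-Y binds. TTTGAA is the cell cycle homology region, or CHR. The E2F sites searched had the form TTGGCGC or the form TTCGCGC, and a match on the other strand is printed as its reverse complement. Matches may share letters with each other, and each was then counted. The windows are Ccnb2 (chr9:70421505-70421804, minus strand), Top2a (chr11:99024140-99024439, minus strand), Mki67 (chr7:135716330-135716629, minus strand), Cdk1 (chr10:69352863-69353162, minus strand), Mcm6 (chr1:128359656-128359955, minus strand) and Tk1 (chr11:117825965-117826264, minus strand).
Ccnb2: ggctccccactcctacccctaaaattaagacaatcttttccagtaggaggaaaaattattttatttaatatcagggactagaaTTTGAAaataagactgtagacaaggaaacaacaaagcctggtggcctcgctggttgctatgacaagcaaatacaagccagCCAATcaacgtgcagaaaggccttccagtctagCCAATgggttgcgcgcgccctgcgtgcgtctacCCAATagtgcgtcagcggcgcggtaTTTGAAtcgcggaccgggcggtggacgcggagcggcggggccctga
Top2a: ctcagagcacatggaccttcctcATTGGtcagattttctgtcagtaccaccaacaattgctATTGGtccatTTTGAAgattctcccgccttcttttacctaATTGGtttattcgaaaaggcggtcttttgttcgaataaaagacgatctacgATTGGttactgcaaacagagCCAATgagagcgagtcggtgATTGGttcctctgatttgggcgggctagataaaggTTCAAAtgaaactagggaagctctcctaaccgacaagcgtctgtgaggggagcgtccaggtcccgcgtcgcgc
Mki67: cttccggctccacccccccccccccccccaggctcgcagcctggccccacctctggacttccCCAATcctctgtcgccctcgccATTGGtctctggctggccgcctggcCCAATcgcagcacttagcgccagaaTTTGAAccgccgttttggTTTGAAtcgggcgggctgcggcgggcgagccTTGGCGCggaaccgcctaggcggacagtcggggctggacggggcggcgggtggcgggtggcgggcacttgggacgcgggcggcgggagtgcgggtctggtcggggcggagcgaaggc
Cdk1: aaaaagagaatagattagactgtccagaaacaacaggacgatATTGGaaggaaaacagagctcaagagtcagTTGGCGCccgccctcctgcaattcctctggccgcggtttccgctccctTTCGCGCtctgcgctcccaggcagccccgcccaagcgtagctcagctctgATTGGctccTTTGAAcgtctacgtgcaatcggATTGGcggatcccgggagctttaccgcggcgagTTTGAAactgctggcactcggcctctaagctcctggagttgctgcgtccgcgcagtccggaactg
Mcm6: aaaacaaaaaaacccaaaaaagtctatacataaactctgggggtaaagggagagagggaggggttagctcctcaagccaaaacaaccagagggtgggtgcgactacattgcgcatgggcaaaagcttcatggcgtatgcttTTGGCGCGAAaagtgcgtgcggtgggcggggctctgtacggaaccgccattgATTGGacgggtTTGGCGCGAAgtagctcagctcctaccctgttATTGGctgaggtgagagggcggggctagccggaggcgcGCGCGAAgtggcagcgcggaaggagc
Tk1: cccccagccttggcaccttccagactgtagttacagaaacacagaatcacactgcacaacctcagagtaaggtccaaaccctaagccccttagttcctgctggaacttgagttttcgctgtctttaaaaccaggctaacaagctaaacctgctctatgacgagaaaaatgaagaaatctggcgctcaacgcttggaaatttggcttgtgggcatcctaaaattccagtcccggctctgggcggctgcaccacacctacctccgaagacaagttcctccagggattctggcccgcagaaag
Ccnb2 and Top2a had 3 and 6 CCAAT boxes with 2 CHR matches each, and Mki67 and Cdk1 had both of these elements and E2F matches. Mcm6 had 5 E2F matches, 2 CCAAT boxes and no CHR. Tk1, the gene that fell furthest in KO liver, held none of these letters in this window. Nusap1, Birc5, Ccne1, Cdc6 and Tyms, which are not shown, held none in their windows either.

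A window was found for 29 of the 37 measured members, with 31 windows because Prc1 and Mcm7 had a second start. The CHR letters stood in 13 of 17 windows of mitotic genes (76.5%), in 1 of 14 of replication genes (7.14%) and in 17.9% of all 32851 promoter windows of the same length. CCAAT stood in 15 of the 17 mitotic windows (88.2%), 9 of the 14 replication windows (64.3%) and 37.4% of all windows. E2F letters stood in 2 mitotic windows (11.8%), 5 replication windows (35.7%) and 3.89% of all windows. In mitotic genes the CHR matches had a median position of -18 bases from the start and the CCAAT boxes one of -65 bases. These are matches of letters, and no binding was measured.

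**Figure D1:**
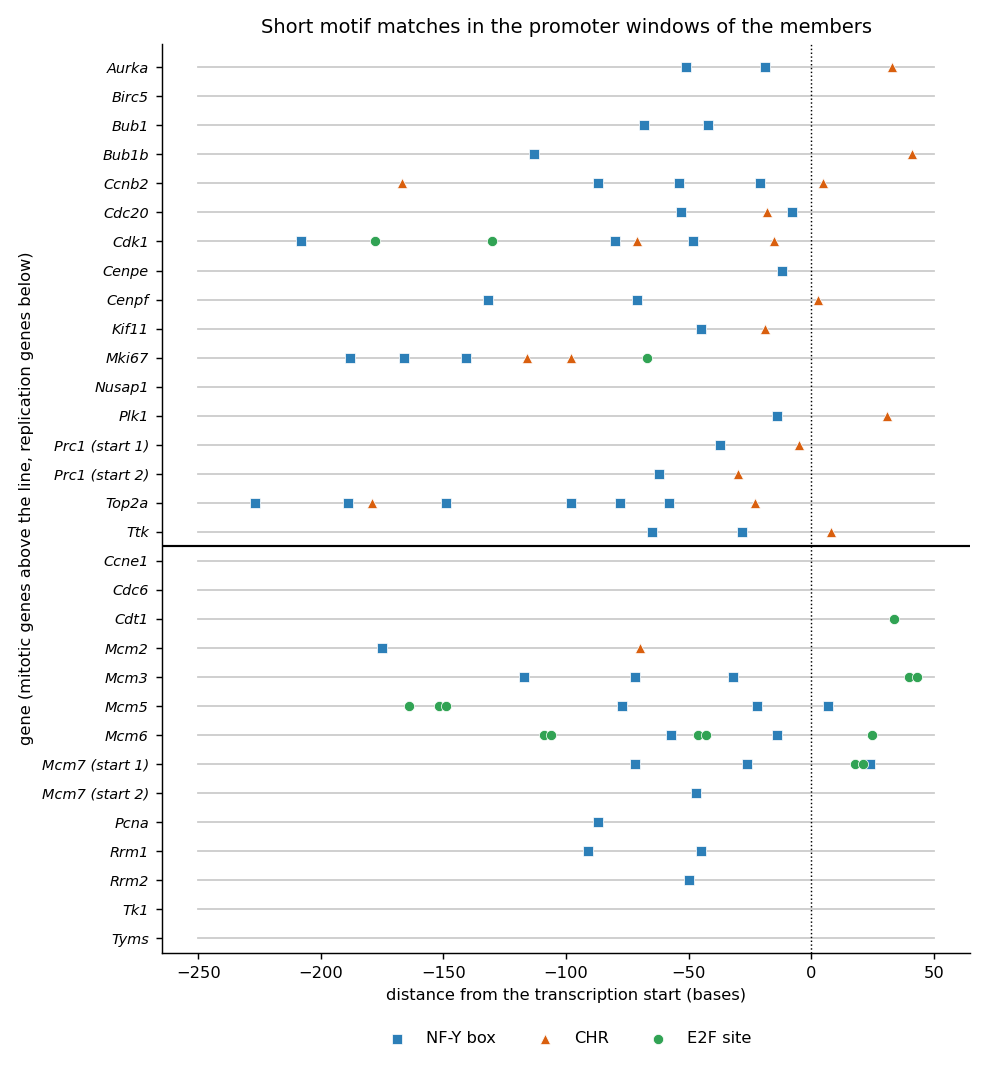
Matches of the NF-Y box, the CHR and the E2F site in the 31 promoter windows of 29 members. The horizontal axis is the distance of the first letter of a match from the transcription start in bases, and each row is a start site. In 13 of 17 mitotic rows a CHR stood with a CCAAT box, against 1 of 14 replication rows.

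All 48 arrays had medians between 3.95 and 4.32, and the lowest correlation of arrays within a group was 0.985. Markers matched the labelled tissues: hepatocyte markers averaged 12.55 to 12.72 in liver arrays and at most 4.57 elsewhere, Hox genes of the cord 7.11 to 7.57 in spinal cord and at most 3.29 elsewhere, and markers of cerebellar and midbrain neurons were highest in their own tissue. The Tia1 probe set of the disrupted exon read lower in KO mice in all 8 comparisons, by log2 changes of -0.39 to -2.35. Tia1 probe sets of later exons read higher in the same comparisons, among them a set by 0.44 to 1.32 and another by 0.61 to 1.45. The study also reported this rise. The median SD within groups was 0.218 in liver, against 0.115 to 0.133 in the nervous tissues. Skeletal muscle markers stood at 8.37 in liver of KO mouse 122972 and at 5.21 in liver of WT mouse 2 at 3 months, against 3.08 to 3.32 in the other liver arrays. In KO midbrain at 6 months cerebellar neuron markers averaged 8.01 in the highest array, against 6.46 and 6.65 in the others. Alb, a hepatocyte marker, was called higher in KO spinal cord at 6 months (log2 change 2.25, limma adjusted p = 0.00317).

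Most members were dim. Of the 37, 27 lay below 4.38, the median of all probe sets, and 10 lay at or above it. Pcna, the sliding clamp of DNA polymerases, was the brightest member at a mean of 9.94 over all arrays, and Mcm4, a helicase subunit, followed at 6.71. Cdc6, which loads the helicase, and Bub1, a kinase of the spindle checkpoint, were dimmest at 2.70 and 2.74. The deposited values carry no detection call, so a dim level cannot be told apart from none.

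In WT mice the members were highest in liver for 21 of 37 genes, in cerebellum for 10, in spinal cord for 5 and in midbrain for 1. The mean over all 37 members was 4.15 ± 0.01 and 4.69 ± 0.08 in WT liver at 6 and 3 months (SD, n = 3 each), and 3.79 ± 0.03 and 3.85 ± 0.04 in WT midbrain, with no overlap. Against midbrain, 21 members were higher and 4 lower in liver, or 67.6% of members, where 79.2% of all probe sets were called, so the share of members that differed was not above the background. The largest differences from midbrain belonged to genes of nucleotide synthesis. Tk1, thymidine kinase, had a mean of 8.18 in WT liver and 2.60 in WT midbrain, a difference of 5.58 (SE 0.096, adjusted p = 2.71e-36). Tyms, thymidylate synthase, differed by 2.79 (SE 0.117), Rrm2, the small subunit of ribonucleotide reductase, by 2.57 (SE 0.113) and Cdk1, the kinase of mitotic entry, by 2.17 (SE 0.192). Tyms was read by a probe set that can bind related transcripts, and so were Mcm2, Mcm7, Prc1 and Aurkb.

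Within WT nervous tissue the order of the members turned on single genes. In cerebellum against midbrain 11 were higher and 4 lower (40.5%, where 47.1% of all probe sets were called), and in spinal cord against midbrain 9 were higher and 1 lower (27%, against 30.1%). Cerebellum led for Mcm5, a helicase subunit, at 4.01 against 2.83 in midbrain, for Ccne2, a cyclin of S phase entry, at 5.47 against 4.38, and for Cdc20 at 4.52 against 3.48. Spinal cord led midbrain for Cdk1 at 3.61 against 2.82, for Mki67, a coat protein of mitotic chromosomes, at 3.40 against 2.70, and for Top2a, topoisomerase II alpha, at 3.08 against 2.60. Between spinal cord and cerebellum 10 were higher and 8 lower in spinal cord (48.6%, against 52.4%). The mean over all members differed by 0.01 between these tissues, and their arrays overlapped.

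**Figure D2:**
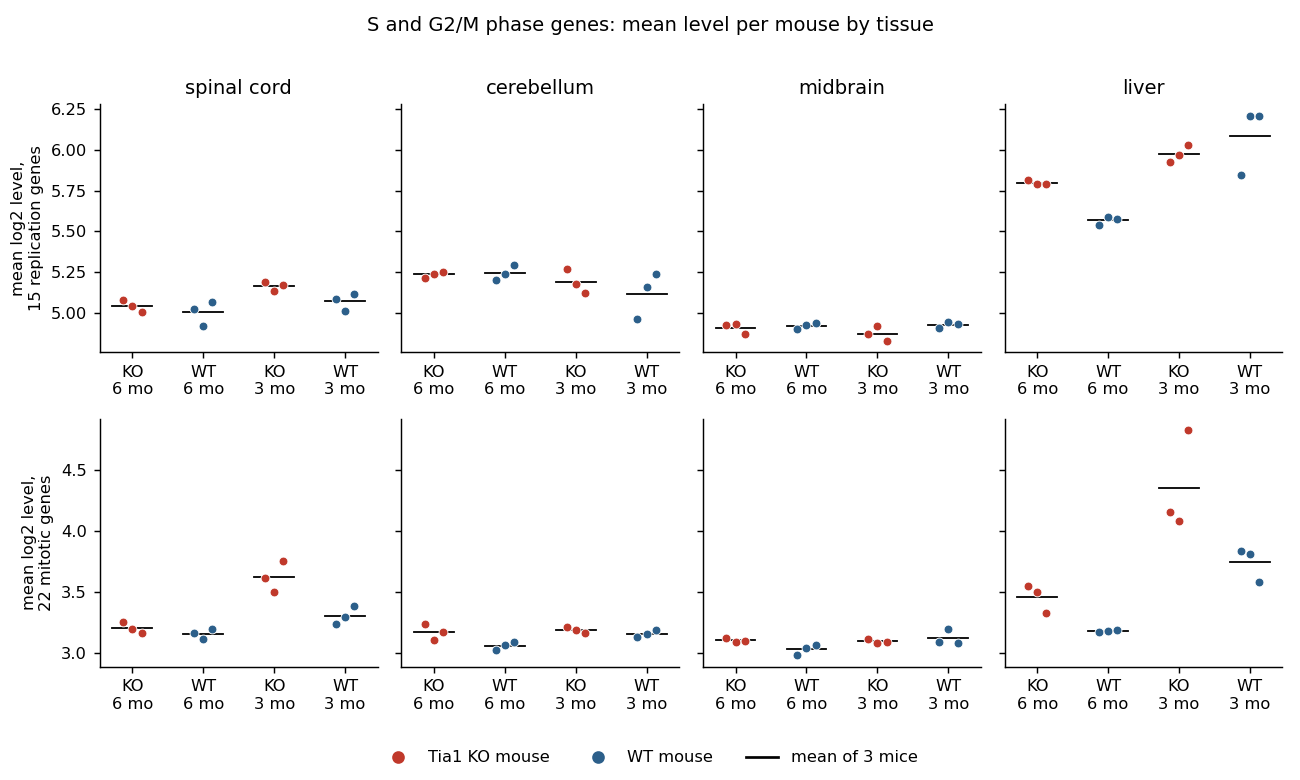
Mean log2 level of the 15 replication genes (top) and the 22 mitotic genes (bottom) in each mouse, by tissue, age and genotype. Points are mice and lines are the means of 3 mice. The mitotic genes stood highest in KO liver at 3 months, at 4.09 to 4.83, and KO spinal cord at 3 months lay above WT spinal cord.

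In liver at 3 months the mitotic genes were higher in KO mice. All 22 had a positive change, with a median of 0.55 on the log2 scale against 0.00107 over all probe sets, and 9 rose and none fell by the test. The 15 replication genes went both ways, with a median of -0.13, and 3 rose and 3 fell. Over all 37 members, 15 were called (40.5%), where 9.44% of all probe sets were called in this comparison (4.92% higher and 4.53% lower). The mean over the mitotic genes was 4.36 ± 0.41 in KO liver and 3.74 ± 0.14 in WT liver (SD, n = 3 each). KO mouse 122973 stood apart at 4.83, and the other KO mice at 4.16 and 4.09 also lay above the highest WT mouse at 3.84.

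Genes of chromosome and spindle proteins were among those that rose. Nusap1, which bundles spindle microtubules, had levels of 4.53, 4.55 and 5.21 in KO liver and 3.88, 3.42 and 3.19 in WT liver at 3 months. Every KO mouse was above every WT mouse, and the change was +2.41-fold (log2 change 1.27, SE 0.155, adjusted p = 3.1e-07). Cenpf, a protein of the outer kinetochore, had 4.22, 4.34 and 4.92 in KO liver and 3.52, 3.07 and 3.04 in WT liver, also without overlap (+2.43-fold, log2 change 1.28, SE 0.157, adjusted p = 3.4e-07). Top2a, which untangles sister chromatids, had 5.17, 5.10 and 5.83 in KO liver and 4.07, 4.25 and 4.10 in WT liver (+2.34-fold, log2 change 1.23, SE 0.188, adjusted p = 2.31e-05). The KO mice of Top2a lay together above a tight WT group. Mki67, the classical marker of dividing cells, had 4.96, 5.85 and 6.36 in KO liver and 5.19, 4.48 and 3.49 in WT liver. WT mouse 1 exceeded KO mouse 122970, so the groups overlapped although the gene was called (+2.53-fold, log2 change 1.34, SE 0.259, adjusted p = 5.72e-04). Prc1, the bundler of the spindle midzone, and Cenpe, a kinetochore motor, rose by 0.66 and 0.61 on the log2 scale (adjusted p = 0.0297 and 0.0027). Prc1 overlapped between the groups and lost its call without 4 of the 6 mice left out in turn (adjusted p = 0.0593 to 0.344).

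Cyclins and their partners were also called, with KO mouse 122973 highest. Ccnb2, a B-type cyclin of mitosis, had 4.42, 4.99 and 6.54 in KO liver and 4.09, 4.62 and 3.54 in WT liver (log2 change 1.23, SE 0.308, adjusted p = 0.00793). KO mouse 122970 lay below WT mouse 2, so the groups overlapped. Ccna2, cyclin A2 of S phase and G2, had 5.81, 5.55 and 6.94 in KO liver and 5.28, 5.08 and 5.09 in WT liver (log2 change 0.95, SE 0.244, adjusted p = 0.00946). Cdc20 had 4.80, 5.35 and 6.30 in KO liver and 4.56, 4.72 and 4.0 in WT liver (log2 change 1.05, SE 0.234, adjusted p = 0.00262). Ccna2 and Cdc20 did not overlap between the groups. Without KO mouse 122973 the log2 changes of Ccna2, Ccnb2 and Cdc20 were 0.53, 0.62 and 0.65, and their calls were lost (adjusted p = 0.155, 0.139 and 0.0694). The calls of Rrm1 (0.0551), Mcm7 (0.0538) and Cdc6 (0.17) were lost too, and 9 of the 15 were kept. The call of Ccnb2 was lost without WT mouse 3 too (0.0776). Birc5 and Aurka, of the chromosomal passenger complex and the spindle poles, had changes of 0.94 and 0.59 that missed the test (adjusted p = 0.0772 and 0.0639).

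The called replication genes of the 3-month liver went both ways, and none kept its call with liver fitted alone. Mcm6 had 6.27, 6.39 and 6.56 in KO liver and 6.95, 7.28 and 7.49 in WT liver, with every KO mouse below every WT mouse (log2 change -0.83, SE 0.123, adjusted p = 1.17e-05). Mcm5 had 3.52, 3.42 and 4.19 in KO liver and 3.69, 4.54 and 5.11 in WT liver (log2 change -0.74, adjusted p = 0.0218), and Cdc6 2.76, 3.01 and 2.67 in KO liver and 2.70, 3.35 and 3.91 in WT liver (log2 change -0.51, adjusted p = 0.0476). The groups overlapped for both, and the calls were lost without 4 and 5 of the 6 mice left out in turn. Mcm7 rose by 0.46, Cdt1 by 0.38 and Rrm1, the large subunit of ribonucleotide reductase, by 0.37 on the log2 scale (adjusted p = 0.0478, 0.0185 and 0.00809). The call of Mcm7 was lost without 5 of the 6 mice left out in turn, and that of Cdt1 without KO mouse 122970 or WT mouse 1 (adjusted p = 0.082 to 0.0906). Pcna was not called, at 9.68, 9.79 and 9.72 in KO liver and 9.72, 9.74 and 9.64 in WT liver (log2 change 0.03, SE 0.061).

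In liver at 6 months, of the 37 members 6 rose and 1 fell in KO mice (18.9%, where 11.5% of all probe sets were called, 5.68% higher and 5.81% lower), 4 of those that rose and the gene that fell being replication genes. The median change was 0.28 for replication genes and 0.25 for mitotic genes, against 5.39e-05 over all probe sets. Cdt1, the licensing factor that loads the helicase with Cdc6, was the only member called at both ages. It had 7.40, 7.87 and 7.55 in KO liver and 6.33, 6.38 and 6.38 in WT liver at 6 months (+2.36-fold, log2 change 1.24, SE 0.108, adjusted p = 1.35e-10), with a wide gap between the groups. A second Cdt1 probe set gave 1.30, and the third, dimmer at a mean of 2.66, gave -0.11. Cdk1 had 5.74, 6.10 and 5.05 in KO liver and 4.35, 4.98 and 3.54 in WT liver (+2.53-fold, log2 change 1.34, SE 0.272, adjusted p = 8.23e-04). Its spread was wide, and the lowest KO mouse lay just above the highest WT mouse.

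Rrm2 had 6.25, 6.78 and 6.95 in KO liver and 5.46, 5.99 and 5.93 in WT liver at 6 months (log2 change 0.87, SE 0.16, adjusted p = 2.49e-04). Mcm4 had 5.75, 5.93 and 6.10 in KO liver and 5.34, 5.03 and 5.18 in WT liver (log2 change 0.74, SE 0.174, adjusted p = 0.00358). Both were higher in every KO mouse. Tk1, which salvages thymidine, went the other way from Rrm2, with 7.41, 6.64 and 6.97 in KO liver and 8.47, 8.40 and 8.13 in WT liver (-2.51-fold, log2 change -1.33, SE 0.136, adjusted p = 5.4e-09). No KO mouse reached a WT mouse. Mcm2 and Bub1 rose by 0.37 and 0.36 on the log2 scale, at adjusted p = 0.0122 and 0.0463, and lost their calls without 3 and 5 of the 6 mice left out in turn. Mki67 and Top2a had changes of 0.64 and 0.52 at this age that missed the test (adjusted p = 0.107 and 0.0665).

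These liver calls leaned on the spread shared by all tissues. With the liver arrays fitted alone, 3 of the 15 calls at 3 months held (Top2a, adjusted p = 0.011, Nusap1, 0.0373, and Cenpf, 0.0491) and 2 of the 7 at 6 months (Cdt1, 0.00185, and Tk1, 0.0183), and with each age of liver alone none and 1 (Cdt1, 0.0374). The called changes of Top2a, Nusap1 and Cenpf came from the brightest of 3, 2 and 3 probe sets, and the dimmer ones read between -0.17 and 0.31. With the mean over all probe sets of a gene the changes of these 3 genes at 3 months were 0.60, 0.65 and 0.37 and were still called (adjusted p = 2.03e-05, 2.19e-06 and 0.00821). With such means the calls of Cdt1, Mcm7 and Rrm1 at 3 months (adjusted p = 0.381, 0.0882 and 0.0964) and of Mcm2 and Bub1 at 6 months (0.802 and 0.334) were lost. Kupffer cell markers moved with genotype in the same livers: of 5 markers none was positive and 1 was lower in KO liver at 3 months (Timd4), and all 5 were positive and 3 higher at 6 months (Clec4f, Marco and Timd4), with list means of 7.78 to 8.16 in KO liver and 8.27 to 8.34 in WT liver at 3 months and 8.27 to 8.70 in KO liver and 7.62 to 7.80 in WT liver at 6 months. Granulocyte precursor markers had means of 3.46 to 4.24 in KO liver and 3.75 to 4.38 in WT liver at 3 months. Adipoq, 1 of 2 adipocyte markers measured, was higher in KO liver at 3 months (log2 change 2.16, adjusted p = 0.0368), with list means of 2.87 to 4.85 in KO liver and 2.84 to 3.13 in WT liver. Of 8 B cell precursor markers Dntt was higher at that age (log2 change 1.63), with list means of 3.60 to 3.88 in KO liver and 3.41 to 3.60 in WT liver. Of 5 genes listed as astrocyte markers Aqp4 and Gja1 were higher (log2 changes 1.52 and 0.71), with list means of 6.62 to 6.90 in KO liver and 5.86 to 6.33 in WT liver. At 6 months Car1, 1 of 7 erythroid precursor markers, was lower in KO liver (log2 change -1.46), with list means of 4.43 to 4.54 in KO liver and 4.64 to 4.93 in WT liver. Of 6 genes listed as microglia markers Csf1r and C1qa were higher, with list means of 5.78 to 6.21 in KO liver and 5.59 to 5.87 in WT liver. Syt1 of the neuron list was lower at 6 and 3 months (log2 changes -0.33 and -0.61). Pvalb of the cerebellar list was higher at 3 months (1.48), and Gpr17 of the oligodendrocyte progenitor list lower at 6 months (-0.63). Aldh1l1 of the astrocyte list read 11.8 in KO liver at 3 months, against 7.95 in KO cerebellum. Lists of brain cells thus need not report those cells in liver. The part of any cell type in the liver result was not tested. Without KO mouse 122972, the liver with muscle markers, 11 of the 15 members called at 3 months kept their call, and Cdc6, Mcm5, Mcm7 and Prc1 lost it (adjusted p = 0.0506, 0.145, 0.119 and 0.112). Without WT mouse 2, 13 kept it, and Cdc6 and Mcm5 lost it (adjusted p = 0.122 and 0.0783).

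**Figure D3:**
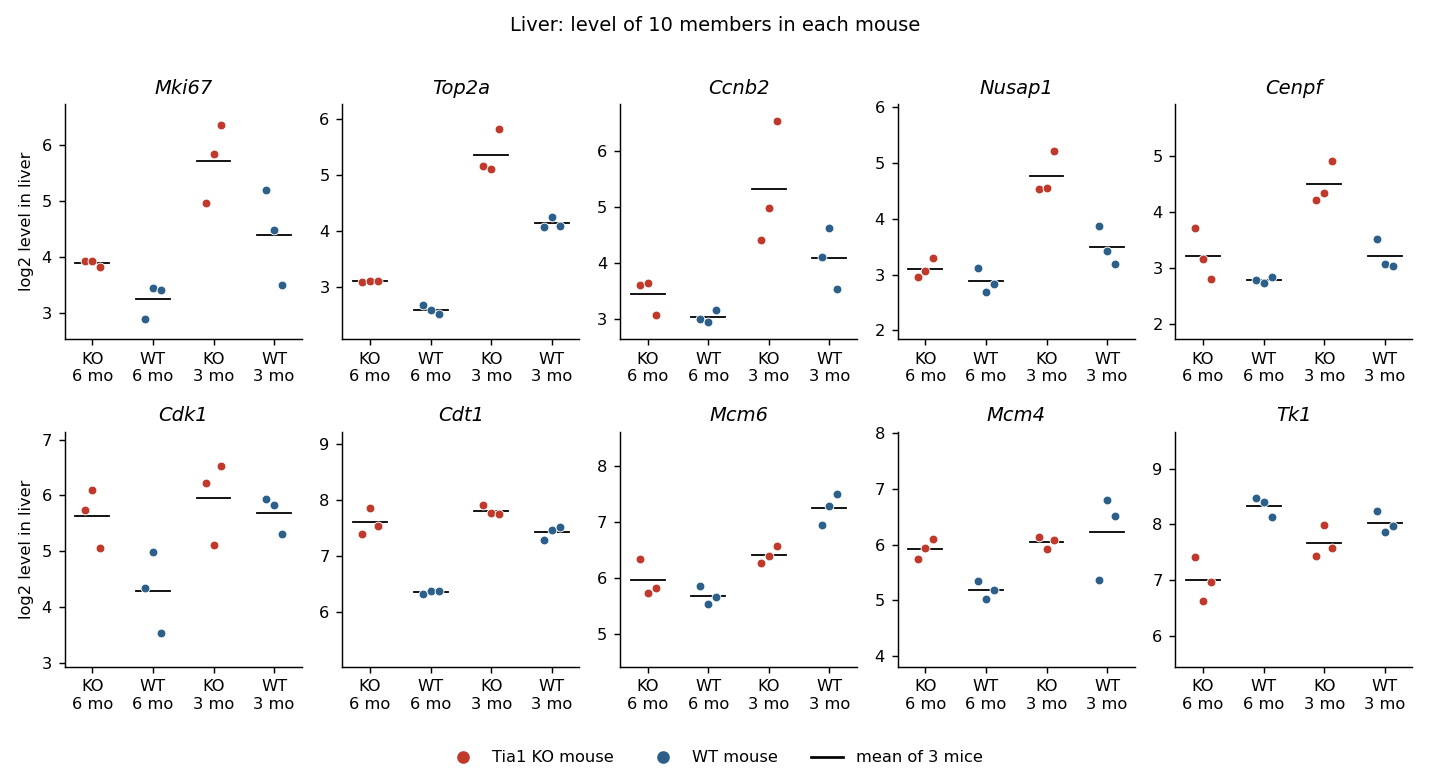
Log2 level of 10 members in the liver of each mouse, with 3 mice per group and lines at the means. Nusap1, Cenpf and Top2a were separated by genotype at 3 months and Cdt1 and Tk1 at 6 months, while Mki67 overlapped at 3 months.

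Between the ages, members were lower in the older livers of both genotypes. In KO liver 16 members were lower and none higher at 6 months (43.2%, where 10.9% of all probe sets were called, 5.68% higher and 5.22% lower). In WT liver 14 were lower and none higher (37.8%, against 10.7%, or 6.09% higher and 4.66% lower). The median change of the members was -0.37 in KO liver and -0.35 in WT liver, against 0.00825 and 0.0086 over all probe sets. The genes lower in both were Mki67, Top2a, Ccna2, Ccnb2, Cdc20, Mcm6, Prc1 and Nusap1, that is 8 of the 16 and 8 of the 14. In KO liver 12 of the 16 were mitotic genes, and in WT liver 8 of the 14, where 22 of all 37 members were mitotic. The WT share was close to that of the list. Top2a had the largest change, with 3.09, 3.11 and 3.11 in KO liver at 6 months and 5.17, 5.10 and 5.83 at 3 months (log2 change -2.26, SE 0.188, adjusted p = 3.7e-10). In WT liver it had 2.67, 2.58 and 2.50 at 6 months and 4.07, 4.25 and 4.10 at 3 months (log2 change -1.56, adjusted p = 2.59e-07). No mouse of 6 months reached the level of a mouse of 3 months. With the mean of its 3 probe sets the changes of Top2a were -0.81 in KO liver and -0.41 in WT liver, still called (adjusted p = 1.76e-07 and 0.00229). For Nusap1 such means gave -0.81 in KO liver and -0.26 in WT liver, where the call was lost (adjusted p = 0.0508).

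Ccna2 had 4.59, 4.04 and 3.72 in KO liver at 6 months and 5.81, 5.55 and 6.94 at 3 months (log2 change -1.98), and Ccnb2 3.60, 3.64 and 3.07 at 6 months and 4.42, 4.99 and 6.54 at 3 months (log2 change -1.88). In WT liver Ccna2 had 3.38, 3.38 and 4.25 at 6 months and 5.28, 5.08 and 5.09 at 3 months (log2 change -1.48), and Ccnb2 2.99, 2.93 and 3.15 at 6 months and 4.09, 4.62 and 3.54 at 3 months (log2 change -1.06). The ages did not overlap in any of these sets. Mki67 had 3.93, 3.92 and 3.82 in KO liver at 6 months, a log2 change of -1.83 (SE 0.259, adjusted p = 8.13e-06), and 2.90, 3.45 and 3.41 in WT liver, a change of -1.13 (adjusted p = 0.00309). Mcm6 fell by 0.45 in KO liver and by 1.56 in WT liver on the log2 scale, where Cdt1, Mcm3, Mcm4 and Mcm5 also fell, by 1.01 to 1.50. Leaving out single mice ended the WT age calls of Mki67 (without WT mouse 1 of 3 months, adjusted p = 0.0691), Ccnb2, Cdc20, Prc1 and Nusap1, and the KO age calls of Mcm6, Rrm1, Tyms, Cenpe and Ttk, at adjusted p up to 0.228. With liver fitted alone, 2 age calls held in KO liver (Top2a and Nusap1) and 4 in WT liver (Top2a, Ccne1, Cdt1 and Mcm6). Cohort and age cannot be told apart in these values.

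The KO effect in liver differed between 6 and 3 months for 7 members (18.9%, where 7.14% of all probe sets were called). It was higher at 6 months for the licensing and helicase genes Mcm6, Mcm5, Mcm4 and Cdt1, by 1.11, 1.04, 0.92 and 0.86 on the log2 scale. It was lower at 6 months for Nusap1, Tk1 and Cenpf, by -1.04, -0.97 and -0.84. In liver alone none of these passed, with adjusted p between 0.192 and 0.574. With the mean over probe sets the difference of Cenpf was -0.16 and not called (adjusted p = 0.515), and that of Nusap1 was -0.55 (adjusted p = 0.00398).

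In nervous tissue a single member was called. Mki67 was higher in spinal cord of KO mice at 3 months, with 4.88, 4.80 and 5.59 in KO mice and 3.42, 3.32 and 3.86 in WT mice. The lowest KO mouse stood almost 1 log2 unit above the highest WT mouse (+2.94-fold, log2 change 1.56, SE 0.259, adjusted p = 5.57e-04). That is 1 of 37 members (2.7%), where 0.311% of all probe sets were called. At 6 months the cord had 3.31, 3.64 and 3.26 in KO mice and 3.52, 3.13 and 3.15 in WT mice, and the groups overlapped. The call held with spinal cord alone (adjusted p = 0.00584) and was missed with spinal cord at 3 months alone (adjusted p = 0.0553).

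Other members leaned the same way in this tissue without passing the test. At 3 months 35 of 37 changes were positive, with a median of 0.12 against -0.00588 over all probe sets, and 10 members lay wholly higher in KO mice, where 7.92% of all probe sets did. The mean over the 37 members was 4.25, 4.16 and 4.33 in KO cord and 3.98, 3.99 and 4.09 in WT cord at 3 months, a difference of 0.23 without overlap. For mitotic genes alone the difference was 0.32, and for replication genes 0.09. Top2a had 4.10, 3.49 and 4.43 in KO cord and 3.06, 3.19 and 4.06 in WT cord, which overlapped (log2 change 0.57, adjusted p = 0.425). Kif11, a spindle motor, Prc1 and Nusap1 had changes of 0.52, 0.47 and 0.42 (adjusted p = 0.432, 0.793 and 0.589). At 6 months the mean over all members differed by 0.04, with overlap.

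Markers of granulocyte and erythroid precursors had higher means in the same cords. All 13 granulocyte precursor markers had positive changes at 3 months and 4 rose by the test, Chil3, Ngp, Camp and Ltf, with a list median of 1.62. Of all probe sets 0.311% were called in this comparison. The marker lists were chosen with earlier results of these data known, so these counts are not independent evidence. With spinal cord fitted alone 1 of the 13 was called. The mean of these markers was 6.36, 5.85 and 6.82 in KO cord and 4.98, 4.72 and 5.60 in WT cord, without overlap. Erythroid precursor markers (7 of 10 measured) averaged 4.17, 3.95 and 4.29 in KO cord and 3.56, 3.44 and 3.75 in WT cord. Of these 2 rose (Slc4a1 and Hemgn), and Alas2 had a negative change (log2 change -0.34). B cell precursor means lay closer, at 3.57 to 3.63 in KO cord and 3.47 to 3.54 in WT cord. At 6 months the granulocyte means were 5.08, 4.91 and 4.75 in KO cord and 5.06, 4.14 and 4.67 in WT cord. In cerebellum and midbrain they stayed between 2.94 and 3.48. Skeletal muscle markers were scattered in the 3-month cords, with 5.93, 7.13 and 8.30 in KO mice and 3.95, 3.03 and 10.42 in WT mice. The part of these cells in the Mki67 result was not tested.

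Between the ages, 2 members were lower at 6 months in KO spinal cord (5.41%, where 0.091% of all probe sets were called). Mki67 fell by 1.69 on the log2 scale (SE 0.259, adjusted p = 2.93e-04) and Top2a by 1.15 (SE 0.188, adjusted p = 8.18e-04), and neither overlapped between the ages. Top2a had 2.61, 2.82 and 3.13 at 6 months and 4.10, 3.49 and 4.43 at 3 months. With spinal cord alone Mki67 was still called (adjusted p = 0.0162) and Top2a was not (adjusted p = 0.283). With the mean of its 3 probe sets Top2a was not called either, at a log2 change of -0.28 (adjusted p = 0.637). In WT cord none was called by limma (0.242% of all probe sets were), 8 of 37 changes were positive, and 3 had an unadjusted p under 0.05. The difference of the KO effect between ages was not called for any member in the 3 nervous tissues, with 2, 1 and 1 members at an unadjusted p under 0.05 in spinal cord, cerebellum and midbrain, where 0.0533%, 0.0577% and 0.0444% of all probe sets were called.

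**Figure D4:**
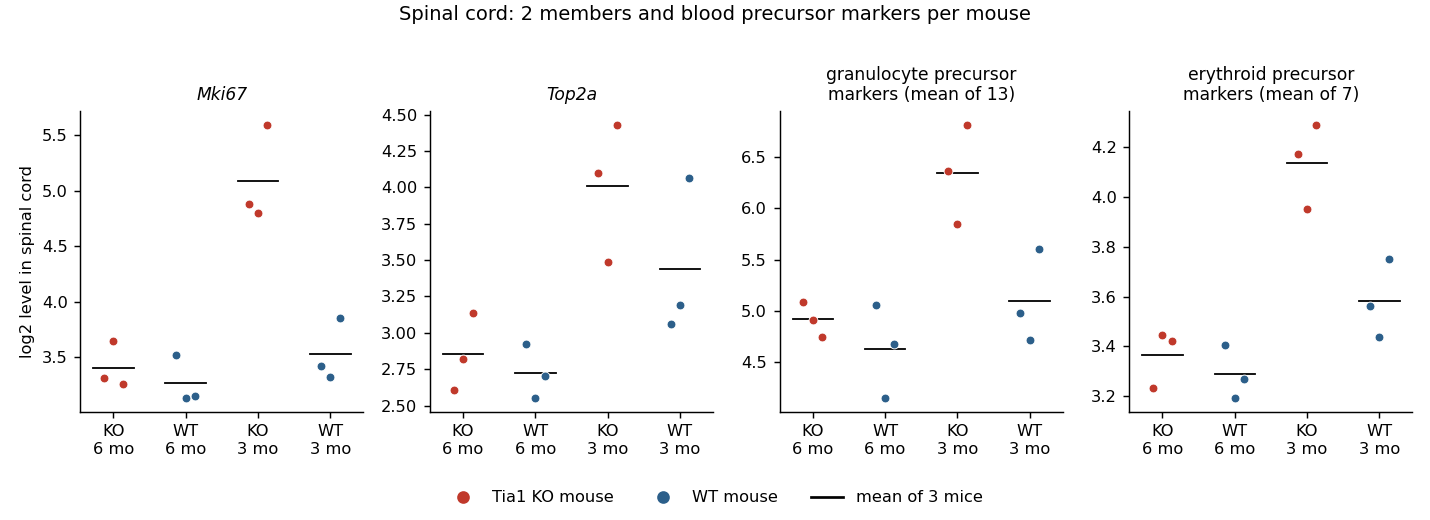
Log2 level of Mki67 and Top2a in spinal cord of each mouse, beside the mean of 13 granulocyte precursor markers and of 7 erythroid precursor markers. KO cords at 3 months had the highest mean in every panel, and Top2a alone overlapped with WT cords of that age.

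Cerebellum and midbrain gave no called member in KO against WT mice at either age by limma, with 2 and 4 members at an unadjusted p under 0.05 in cerebellum at 6 and 3 months and 1 and 1 in midbrain. The background was 0.182% and 0.548% of probe sets in cerebellum at these ages, 0.142% and 0.242% in midbrain, and 0.162% in spinal cord at 6 months, where 1 member had an unadjusted p under 0.05. Among the 221 changes in nervous tissue other than Mki67 in the 3-month cord, the range was -0.30 to 0.66 and the lowest adjusted p was 0.144. The largest was that of Cdc20 in cerebellum at 6 months, with 5.40, 4.87 and 5.18 in KO mice and 4.40, 4.81 and 4.26 in WT mice. KO mice lay above WT mice, but the change of 0.66 missed the test (SE 0.234, adjusted p = 0.617). The mean over all members differed between genotypes by 0.06 and 0.05 in cerebellum and by 0.04 and -0.04 in midbrain at 6 and 3 months, all with overlap.

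With age, Cdt1 alone changed in WT cerebellum, where 2.7% of members were called against 1.13% of all probe sets. It had 7.04, 7.39 and 7.26 at 6 months and 6.49, 6.71 and 6.83 at 3 months (log2 change 0.56, SE 0.108, adjusted p = 0.0038). The call was lost without WT mouse 2 of 6 months or WT mouse 1 of 3 months (adjusted p = 0.0619 to 0.0783), and with the mean over its probe sets (log2 change 0.27, adjusted p = 0.184). In KO cerebellum Cdt1 had 7.14, 6.96 and 6.89 at 6 months and 6.93, 6.69 and 6.73 at 3 months and was not called. No other member passed with age in cerebellum or midbrain by limma. The counts at an unadjusted p under 0.05 were 0 and 4 in KO and WT cerebellum and 0 and 2 in KO and WT midbrain, and 0.0844% of all probe sets were called in KO cerebellum, 0.00444% in KO midbrain and 0.258% in WT midbrain.

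**Figure D5:**
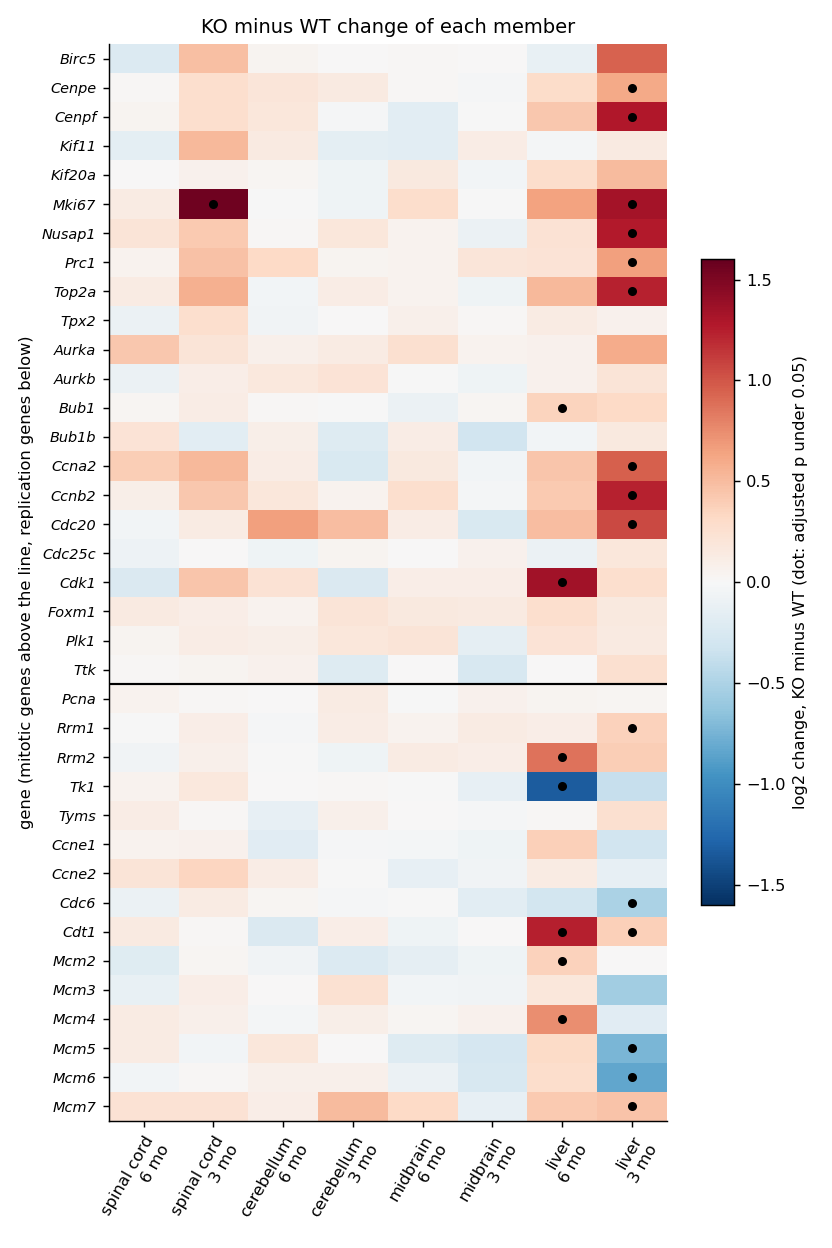
Log2 change of KO over WT mice for each of the 37 members in 4 tissues and 2 ages, with mitotic genes above the line and replication genes below. Dots mark adjusted p under 0.05. All but 1 of the dots lie in liver, 15 at 3 months and 7 at 6 months, and the other is Mki67 in spinal cord at 3 months.

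Over the 8 comparisons of genotype 21 members were called at least once and 16 never. Those never called included mitotic genes (Aurka, Aurkb, Birc5, Bub1b, Foxm1, Kif11, Plk1, Tpx2 and Ttk among them) and the bright Pcna and Tyms. Ccne1 and Ccne2, the cyclins of S phase entry, were also never called. Pcna had changes between -0.00139 and 0.13 in these comparisons. Foxm1, a factor that drives mitotic genes, was dim at a mean of 3.20.

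Of 44 measured genes of the same phases outside the list, 11 rose and 6 fell in KO liver at 3 months and 7 rose and 2 fell at 6 months, where 9.44% and 11.5% of all probe sets were called. With liver fitted alone 2 and 0 of them were called at 3 and 6 months. Their median change was 0.12 at 3 months and 0.16 at 6 months. Ube2c, the ubiquitin carrier of the anaphase complex, rose by 1.84 on the log2 scale and Pbk, a mitotic kinase, by 1.44, while Pole and Prim1, subunits of DNA polymerases, fell by 0.80 and 0.46. Anln, a scaffold of the cleavage furrow that oligodendrocytes also express, had 5.21, 4.75 and 5.65 in KO liver and 4.58, 4.11 and 3.99 in WT liver at 3 months (log2 change 0.97, adjusted p = 7.53e-05). Spc25, a kinetochore protein, rose by 0.71 and Kif2c, a microtubule depolymerase, by 0.60 at 3 months. Cks1b, a subunit of cyclin-dependent kinases, fell by 0.69 at 3 months and by 0.52 at 6 months. In nervous tissue Cks2 alone was called, lower in KO midbrain at 3 months by 0.49 on the log2 scale (adjusted p = 0.0253), and with midbrain fitted alone none of the 44 was called there.

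The regulators of the cycle gave 8 higher and 4 lower of 38 in KO liver at 3 months, and 6 higher and 3 lower at 6 months, against the same backgrounds of 9.44% and 11.5%. With liver fitted alone 2 and 3 of them were called at 3 and 6 months. Cdkn1a, the inhibitor p21 that holds cyclin-dependent kinases in check, rose in 6 of 8 comparisons, in nervous tissue too. It had 6.62, 5.88 and 5.35 in KO liver and 4.33, 4.37 and 4.12 in WT liver at 6 months (log2 change 1.67, adjusted p = 1.76e-05). In KO liver at 3 months it had 6.19, 5.78 and 5.85, and 4.43, 3.94 and 4.90 in WT liver (log2 change 1.51, adjusted p = 1.05e-04). In cord at 3 months, where Mki67 was higher, Cdkn1a had 8.40, 8.38 and 8.22 in KO mice and 7.33, 7.67 and 7.39 in WT mice, without overlap (log2 change 0.87, adjusted p = 0.25). Ccnf, a cyclin of ubiquitin ligases, rose by 1.57 in liver at 3 months and by 0.79 at 6 months. Cdkn1a and Ccnf had been picked by the study from these arrays, so these array values are not independent evidence. The study also reported both genes as higher by qPCR in cerebellum.

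E2f8, a repressor of E2F targets, had the largest change of the 38 regulators at 6 months, with 6.89, 7.80 and 7.83 in KO liver and 5.07, 5.54 and 4.72 in WT liver at 6 months (log2 change 2.40, SE 0.251, adjusted p = 9.44e-09). At 3 months it had 7.18, 7.23 and 6.62 in KO liver and 4.87, 6.80 and 5.86 in WT liver, where the groups overlapped (log2 change 1.16, adjusted p = 0.00193). Gadd45a, a stress inducible inhibitor of cell cycle progress, fell at both ages, with 4.94, 5.10 and 4.83 in KO liver and 5.90, 6.31 and 5.45 in WT liver at 6 months (log2 change -0.93, adjusted p = 1.43e-05) and a change of -1.34 at 3 months. Ccnd1, the cyclin of G1, was lower in KO liver at 3 months (log2 change -0.82, adjusted p = 0.0011) and higher at 6 months (log2 change 0.53, adjusted p = 0.0333). In cerebellum at 3 months Cdkn1a, Ccnf and Lin9, a MuvB subunit, rose by 1.62, 0.72 and 0.50 on the log2 scale (limma adjusted p = 3.35e-04, 0.0115 and 0.0449). No member of the list was called there, and 0.548% of all probe sets were. With cerebellum fitted alone 2 of the 38 regulators were called at 3 months. At 6 months no regulator was called in cerebellum.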

How the data were processed

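RNA of whole tissue was hybridised by the authors to Affymetrix mouse arrays, 48 in all, 16 groups of 3 mice. The authors deposited log2 expression values, background-corrected, normalized and summarised by RMA in R 2.14.0 per the labels, and all 48 columns were mapped to a sample. From a table of 45141 rows, 104 control rows were dropped. By the platform annotation 28898 of the others carried 1 gene symbol, 551 more than 1, and 15588 had no symbol listed. RMA normalizes all tissues together, which assumes like distributions in brain and liver, and the summarised values hold no detection call.

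A linear model with 1 mean per group was fitted with limma 3.58.1 in R 4.3.3 (16 groups, 32 residual and 4.97 prior degrees of freedom), with Benjamini-Hochberg adjustment over all 45037 probe sets within each comparison and a threshold of 0.05. There were 8 comparisons of genotype, 8 of age, 4 differences between ages and 4 of tissue. Values and calls are those of the brightest probe set of each member unless other sets are named. No p is given for a mean over members. The smallest exact p of 3 against 3 mice is 0.1, so single values were not tested alone. Within a group mice were separate animals. The SE of a change came from the spread of the probe set pooled over all 16 groups, with 3 arrays in each. The fit was also run on simulated arrays that gave each probe set the same SD in all tissues. That run cannot show how the wider spread of liver affects its calls.

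Members, roles and marker lists were chosen with earlier results of these data known. Named members are those called in nervous tissue, the 4 largest called changes in each liver comparison and in each tissue with age, the 2 brightest and 2 dimmest, and the 3 farthest above midbrain in each other tissue. Of other lists Cdkn1a and up to 4 genes called in the most comparisons were named; Ube2c, Pbk, Pole, Prim1, Ccnd1, Lin9, Cks2 and further members named beside them were chosen after their values were seen. The mouse numbers pair tissues of a mouse, not KO with WT mice: residuals of the same mouse had a median correlation of 0.0511 over 72 pairs of tissues, against -0.0219 over 144 pairs of different mice, and the consensus correlation was 0.0303. Alternatives were fits to each tissue or tissue and age, removal of dim probe sets, renormalizing within tissues by quantiles, a trended robust prior, the mouse as a block, a threshold of 0.01, means over probe sets, nested F decisions, and leaving out each mouse.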

Additional observations from a re-analysis of the deposited data

Results flagged for a closer look

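For 7 members the effect of the KO in liver differed between 6 and 3 months by a test of the difference itself, among 37 members tested. The difference, 6 minus 3 months on the log2 scale, was 0.8557 for Cdt1 (SE 0.153, adjusted p = 3.45e-04), 0.9204 for Mcm4 (SE 0.246, adjusted p = 0.0166), 1.042 for Mcm5 (SE 0.3, adjusted p = 0.027) and 1.114 for Mcm6 (SE 0.174, adjusted p = 5.67e-05). It was -0.9655 for Tk1 (SE 0.192, adjusted p = 0.00128), -0.8446 for Cenpf (SE 0.222, adjusted p = 0.015) and -1.038 for Nusap1 (SE 0.219, adjusted p = 0.00233). The calls of Mcm4, Mcm5 and Cenpf were lost without 5, 7 and 2 of the 12 liver mice left out in turn, at adjusted p of 0.0543 to 0.123. With the mean over all probe sets of a gene the difference of Cenpf was -0.16 (adjusted p = 0.515) and that of Nusap1 -0.55 (adjusted p = 0.00398), and with liver fitted alone none of the 7 was called. With groups of 3 mice, single mice far from their group were not tested for.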

How the results depend on the processing

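The liver results depended most on which arrays set the spread. With each tissue fitted alone, the members called were 3 in place of 15 for KO against WT liver at 3 months, 2 in place of 7 at 6 months, 2 in place of 16 for age in KO liver, 4 in place of 14 for age in WT liver, 0 in place of 7 for the difference of the KO effect in liver, and 1 in place of 2 for age in KO spinal cord. With each tissue and age alone they were 0 and 1 for liver at 3 and 6 months and 0 in place of 1 for spinal cord at 3 months. Leaving out dim probe sets, which leaves out most members, gave 5 and 4 for liver at 3 and 6 months, 0 for spinal cord at 3 months, 0, 2, 5 and 6 for age in KO spinal cord, WT cerebellum, KO liver and WT liver, 4 for the difference in liver, and 4, 8, 6 and 6 in place of 10, 15, 18 and 25 for spinal cord against midbrain, cerebellum against midbrain, spinal cord against cerebellum and liver against midbrain. A trended robust prior gave 2 for age in WT cerebellum, and the mean of a gene's probe sets gave 0 there and 1 for KO against WT cerebellum at 3 months. Nested F decisions gave 1 for that cerebellum and 9 for liver at 3 months, and a threshold of 0.01 gave 4 for the difference in liver. Leaving out each mouse gave 9 to 16 calls in liver at 3 months (9 without KO mouse 122973), 1 to 2 in spinal cord at 3 months (2 without WT mouse 3), 0 to 1 for age in WT cerebellum and 0 to 1 for the difference in spinal cord. With the mouse as a replicate block the counts were 15, 7 and 1 for liver at 3 and 6 months and spinal cord at 3 months, and the block moved no count of calls by over 1.5 times. Of 63 called pairs of member and comparison, 8 kept their call under every alternative, 55 lost it at least once and 0 reversed.

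The mean over members moved too, and no test was made of it. With the median over members the KO difference was 0.37 in spinal cord at 3 months (mean 0.226), -0.0684 in spinal cord at 6 months (mean 0.0447), 0.125 in cerebellum at 6 months (mean 0.0647) and 0.0928 in midbrain at 3 months (mean -0.0386). With bright members alone it was 0.113 in spinal cord at 3 months, -0.0339 in cerebellum at 6 months, and 0.406 and 0.114 in liver at 6 and 3 months (means 0.259 and 0.32), and with all probe sets of a gene 0.196 in liver at 6 months. The age difference by the median and by bright members was -0.513 and -0.119 in KO spinal cord (mean -0.298), -0.0907 and 0.158 in WT cerebellum (mean -0.00965), -0.0202 and 0.0451 in KO midbrain (mean 0.0194), 0.00656 and -0.00734 in WT midbrain (mean -0.0584), -1.02 and -0.369 in KO liver (mean -0.608), and -0.737 and -0.661 in WT liver (mean -0.547). It was 0.0609 by bright members in KO cerebellum (mean 0.00977) and -0.45 by all probe sets in WT liver. The cause of these shifts was not tested. Groups of 3 mice and dim probe sets limit what could be called.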
